A study of Mus musculus with 204 samples.

Results

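Clustered protocadherins were followed in single-cell libraries from mouse distal colon, on 3 plates of 66, 66 and 72 cells. The members were taken by gene name and comprised 57 of the 49492 rows of the expression table: 13 alpha, 22 beta and 22 gamma genes. Pcdhac1, Pcdhac2, Pcdhgc3, Pcdhgc4 and Pcdhgc5 are the 5 C-type members, and the other 52 are called alternate members here. All 57 lie on the plus strand of mouse chromosome 18. In the GENCODE M21 annotation of mm10 the alpha genes span 36930184 to 37187661, the beta genes 37264938 to 37524479 and the gamma genes 37661793 to 37841873.

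Protocadherins are cadherin-family adhesion proteins of the neuronal surface. Each clustered gene begins with its own large first exon, which codes for the whole extracellular part and the membrane span and is read from its own promoter. In the alpha and gamma clusters every first exon is spliced to the same short constant exons of that cluster, whereas beta genes have a single coding exon and no constant part. In many brain neurons the alternate members are chosen at random, a few per cell, and C-type members are expressed more evenly; matched isoforms bind each other, and the resulting label lets a neurite tell itself from its neighbours.

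The cells came from mice carrying a VGLUT2-tdTomato reporter. VGLUT2 is a vesicular glutamate transporter encoded by Slc17a6, and tdTomato is a red fluorescent protein; how the reporter is driven is not stated in the sources used here. The muscle layers with their myenteric plexus (the ganglia and fibres that lie between the 2 muscle coats of the gut) were dissociated, and after a night in culture red cells were picked by hand. This genotype and treatment is common to all libraries, and the labels separate them only by plate. The labels number the libraries of plates 2 and 3 in a single series and name them alike, whereas those of plate 1 have their own numbers and names, so plates 2 and 3 may share steps that plate 1 does not; what the numbering stands for is not stated in the sources used here. No age, animal or culture is named in the sources used here. Each plate is therefore treated as a single sample, cells are not replicates, and no p-values are given; intervals for shares of cells are 95% exact Clopper-Pearson intervals and cover counting error only.

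Although every library is labelled as a neuron, 75.5% (interval 69.0 to 81.2%) carried at least 50% of 13 pan-neuronal genes at 10 CPM (reads per 1000000 reads of the library) or more. These are called neuronal cells here, and there were 54, 45 and 55 of them on plates 1 to 3. The other 50 cells (12, 21 and 17) did not, and 49 of them carried a list of another cell type. Such a list was also carried by 44 neuronal cells, most often that of smooth muscle (28 neuronal and 27 other cells) or fibroblasts (16 and 16). Libraries held 453108 to 14310837 reads, with a median of 4099424 in neuronal and 4039833 in other cells. Slc17a6 itself was present at 10 CPM in 57.8% of neuronal cells and in 0 of 50 other cells.

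A group of libraries stood apart. Over 4579 genes with a mean of 5 to 20 CPM, 8 of the 20706 pairs of libraries had correlations of 0.812 to 0.982, against at most 0.644 for every other pair and a median of 0.091. The 8 pairs hold 16 libraries, 14 of them neuronal, and 1 pair joins cell 19 of plate 2 with cell 57 of plate 3. Chi-square per degree of freedom between the read counts of a pair was 5.46 to 110.7, where read sampling alone would give about 1, and how the pairs arose was not tested. Mean isoform numbers, the count of members higher in neuronal cells, sharing and sets are also given with 1 library of each pair, the deeper. This leaves 50, 45 and 52 neuronal cells on plates 1 to 3 and 49 other cells. Shares of single members, C-type combinations and values by transmitter marker or cell type list rest on all libraries.

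Counting differed between plates. The alpha members share 2860 bases of constant exons in the annotation, and the gamma members 2116. On plates 2 and 3, the plates numbered together, most libraries held a count common to all members of a cluster, with the members that stood above it differing from cell to cell: 51 of 66 and 58 of 72 libraries for the 13 alpha members, and 58 of 66 and 63 of 72 for the 22 gamma members. On plate 1 the lowest member of each cluster had 0 reads in all 66 libraries. The same split appeared at Ugt1a, another locus where several first exons join common exons: all 9 of its members had reads in 0 of 19 plate 1 libraries with any Ugt1a read, in 13 of 15 on plate 2 and in 6 of 9 on plate 3. Taken as deposited, a neuronal cell therefore held a mean of 6.06 isoforms at 10 CPM or more on plate 1, 29.0 on plate 2 and 31.1 on plate 3 (21.7 over all). Member-specific reads are used below unless stated: the reads of a member minus the lowest count among the members of its cluster in the same cell. With these the plate means were 6.06, 5.38 and 5.04. In addition, 20 of the 57 members overlap another gene model by at least 100 bases outside the constant exons, so that some of their reads may belong to it. Genes in such overlaps also differed by plate. Gm42416, over Pcdha4, had reads in 0 of 66, 50 of 66 and 48 of 72 libraries of plates 1 to 3. Gm37013, over Pcdha6, had them in 0, 46 and 41, and Gm26672, over Pcdhga10, in 24, 32 and 33. The members themselves differed less by plate than Gm42416 and Gm37013 did. Member-specific reads of Pcdha4 were found in 8, 9 and 9 libraries of plates 1 to 3, and those of Pcdhga10 in 10, 8 and 18. Most libraries with Gm42416 reads thus held none specific to Pcdha4. Subtracting the lowest count of a cluster does not remove such reads, so plates may still differ for these members. Why the plates differed was not tested.

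Neuronal cells held a mean of 5.49 ± 2.86 isoforms (SD over cells), with a lowest of 0, a median of 6 and a highest of 13. At least 1 isoform was present in all 54 neuronal cells of plate 1, in 43 of 45 of plate 2 and in 47 of 55 of plate 3 (93.5% over the plates, interval 88.4 to 96.8%). Other cells held a mean of 2.18 ± 2.90, with a median of 1 and a highest of 14, and 33 of 50 (66.0%, interval 51.2 to 78.8%) had at least 1. Their plate means of 4.42, 1.76 and 1.12 differed more than those of the neuronal cells, and on plate 1 the range of 0 to 14 in other cells took in the 2 to 13 of the neuronal cells. The make-up of the other cells also differed by plate. An endothelial list was carried by 9 of 12, 2 of 21 and 2 of 17 of them, and its part in these means was not tested. With 1 library of each near-identical pair the means were 5.48 and 2.22, and with every cell thinned to 1000000 reads, leaving out shallower cells, they were 5.91 and 2.35.

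**Figure D1:**
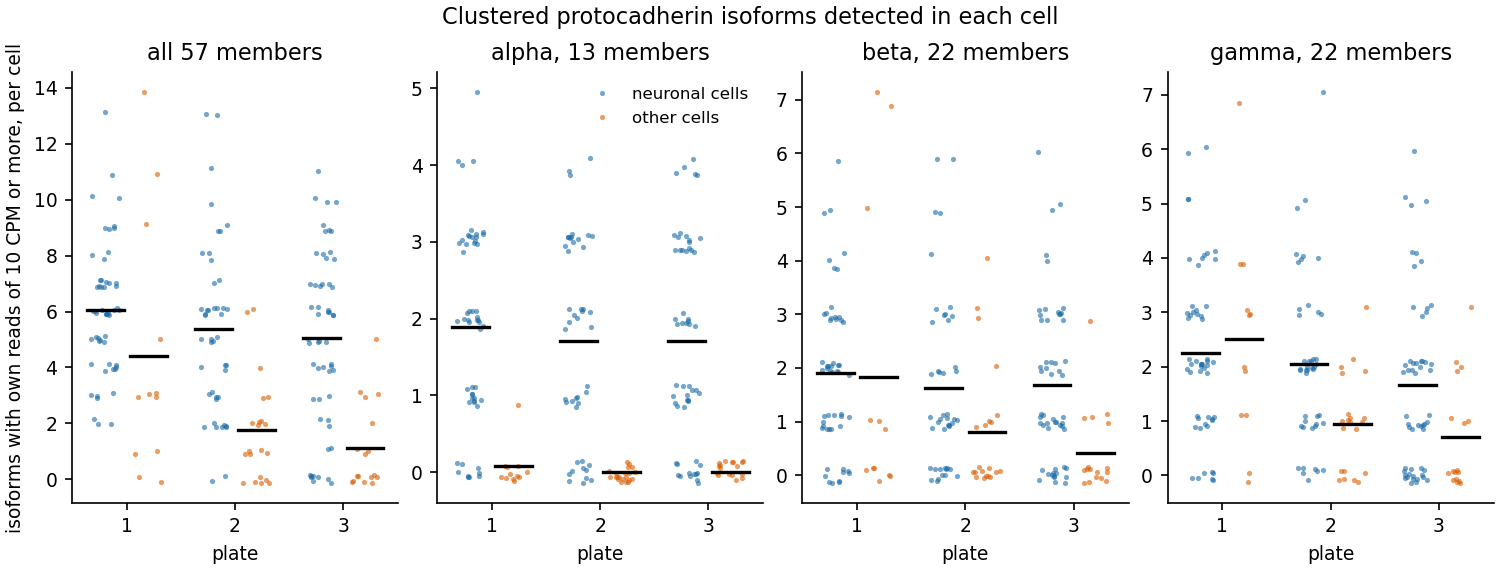
Number of clustered protocadherins per cell with member-specific reads of 10 CPM or more (vertical axis; points are single cells, jittered around whole numbers) by plate (horizontal axis), for all members and for each cluster; black bars are means. The means of blue neuronal cells over all members lie near 5 to 6 isoforms on each plate, with single cells spread widely around them. The alpha panel shows a single orange other cell above 0.

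The 3 clusters contributed similar numbers to a neuronal cell but separated the classes differently. Neuronal cells held means of 1.77 alpha, 1.74 beta and 1.98 gamma isoforms, and other cells 0.02, 0.92 and 1.24. An alpha isoform was present in 45, 34 and 42 neuronal cells of plates 1 to 3 (78.6% in all) and in 1 of 50 other cells (2.00%, interval 0.0506 to 10.6%). Alternate alpha members reached 10 CPM in 37, 29 and 35 neuronal cells (65.6%), of which 43 had 1, 41 had 2 and 17 had 3 or more, and in 0 of 50 other cells (a count of 0 allows up to 6.00%). Beta members were present in 76% of neuronal and 40% of other cells, and gamma members in 79.9% and 62%. The 10 CPM limit lay within a continuous range: of 8778 member values in neuronal cells, 253 were between 5 and 10 CPM and 320 between 10 and 20, against 846 at 10 or above in all.

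Within a cluster a few members carried most of the reads. Among the neuronal cells whose member-specific reads in a cluster summed to at least 10 CPM, the leading member held a median of 56% of the alpha sum (47, 34 and 44 cells of plates 1 to 3), 65.1% of the beta sum (45, 34 and 41 cells) and 49.8% of the gamma sum (52, 40 and 42 cells). In the cell with the highest beta sum, on plate 2, Pcdhb20 stood at 648.3 CPM and Pcdhb9 at 551 CPM, and no other member of any cluster reached 10. The highest gamma sum belonged to a plate 3 cell with Pcdhga8 at 130.8 CPM, Pcdhgb4 at 113.2, Pcdhga10 at 53.8, Pcdhga1 at 32.5 and Pcdhga11 at 25.5, besides Pcdhb17 at 147.97 and Pcdha9 at 54.7. Pcdhgb4 and Pcdhga8 overlap each other in the annotation, and Pcdhga10 and Pcdhga11 each overlap the antisense gene Gm26672.

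**Figure D2:**
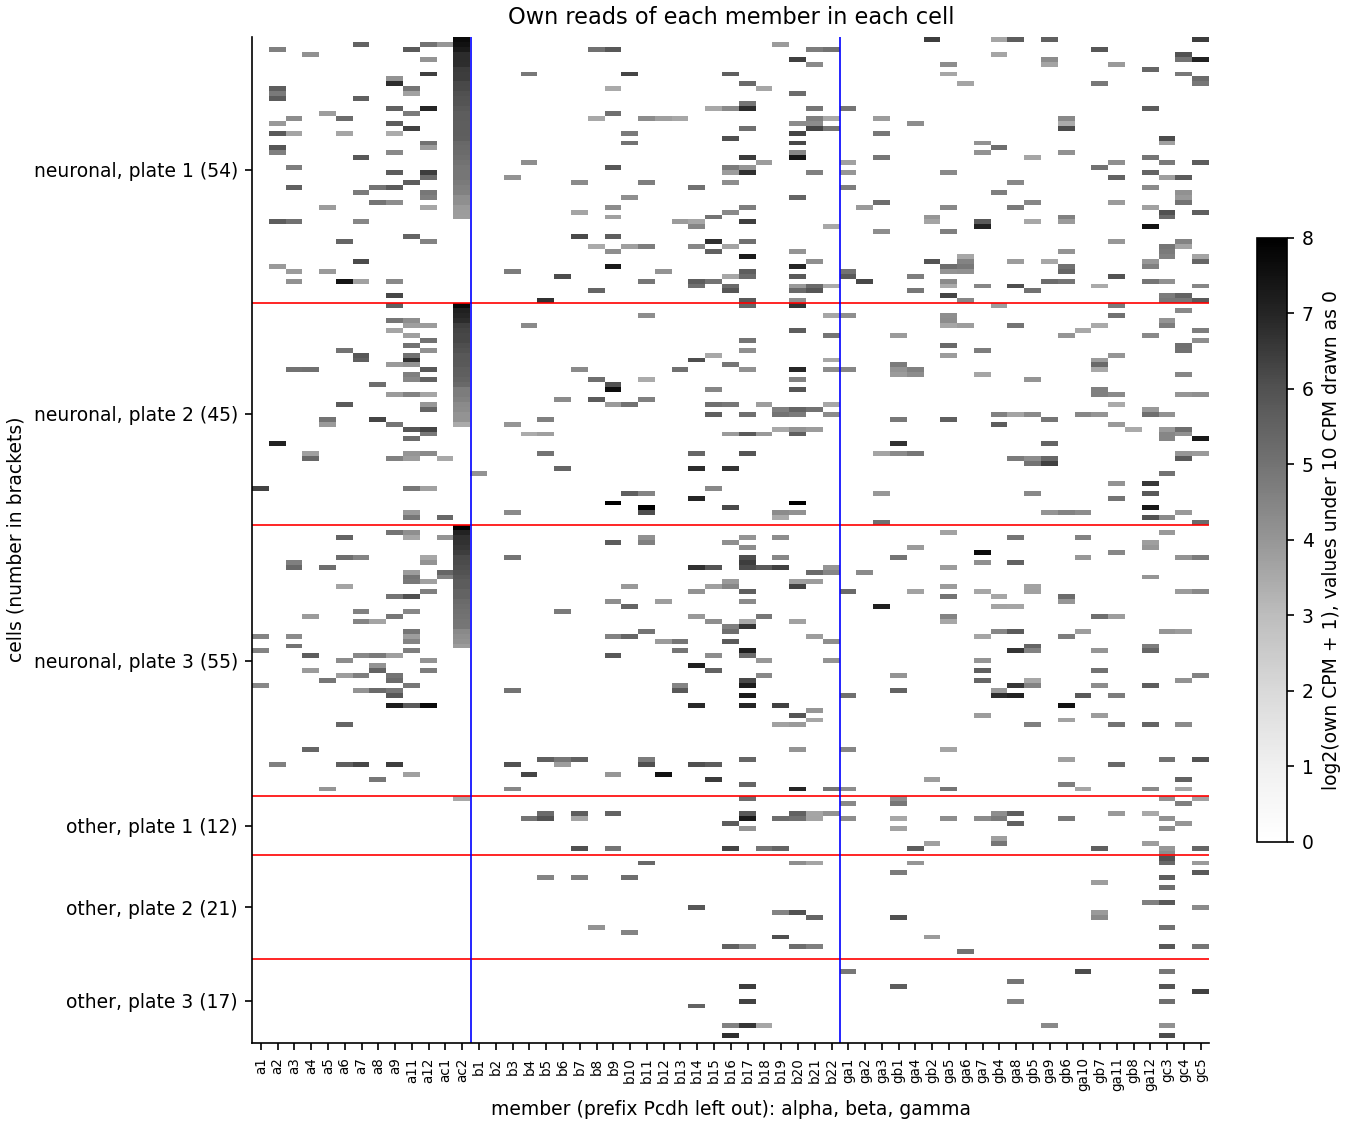
Member-specific reads of the 57 members (columns, in chromosomal order, alpha, beta and gamma divided by blue lines) in each cell (rows, grouped by class and plate, divided by red lines, sorted by Pcdhac2); the grey scale is log2(CPM + 1) and values under 10 CPM are blank. The filled column in neuronal cells is Pcdhac2, the remaining entries are scattered, and the alpha block is empty in other cells except for 1 cell of plate 1.

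Among alpha members, Pcdhac2 was the most widespread of all 57. It was present in 37, 25 and 25 neuronal cells of plates 1 to 3 (56.5%, interval 48.3 to 64.5%) and in 1 of 50 other cells, where its highest value was 10.5 CPM. Neuronal values ran from 0 through a median of 28.9 to a highest of 205 CPM on plate 1, from 0 through 16.1 to 209.7 on plate 2 and from 0 through 8.15 to 408 on plate 3. The ranges of the classes overlap at the low end, and the highest value in other cells lay below the neuronal medians of plates 1 and 2. Reads of it were found in 47 of 54, 31 of 45 and 42 of 55 neuronal cells. The share of neuronal cells with Pcdhac2 was highest on plate 1 (68.5%), lower on plate 2 (55.6%) and lowest on plate 3 (45.5%). Pcdhac1, the other alpha C-type gene, was present in 6 neuronal cells (3.90%) and reached at most 40.3 CPM.

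The alternate alpha members were each present in a minority of neuronal cells, and the 3 most often present lie towards the 3′ end of the array. Pcdha11 was present in 38 cells (24.7%), Pcdha12 in 31 (20.1%) and Pcdha9 in 28 (18.2%), against 4 (2.60%) for Pcdha1, the first gene of the array. The 4 cells with Pcdha1 include the near-identical cells 5 and 36 of plate 3. The Pcdha11 row joins 2 annotated gene models of that name and covers 7174 bases outside the constant exons, so its count may include another first exon; no row is named Pcdha10. Pcdha12 had a median of 0 CPM and a highest of 201 CPM in neuronal cells, and Pcdha9 a median of 0 and a highest of 147.6. In the other cells Pcdha9 had no read at all, and Pcdha12 at most 0.399 CPM. Plates differed for single members: Pcdha2 was present in 10 neuronal cells of plate 1 and in 1 each of plates 2 and 3, and Pcdha11 in 7, 17 and 14.

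**Figure D3:**
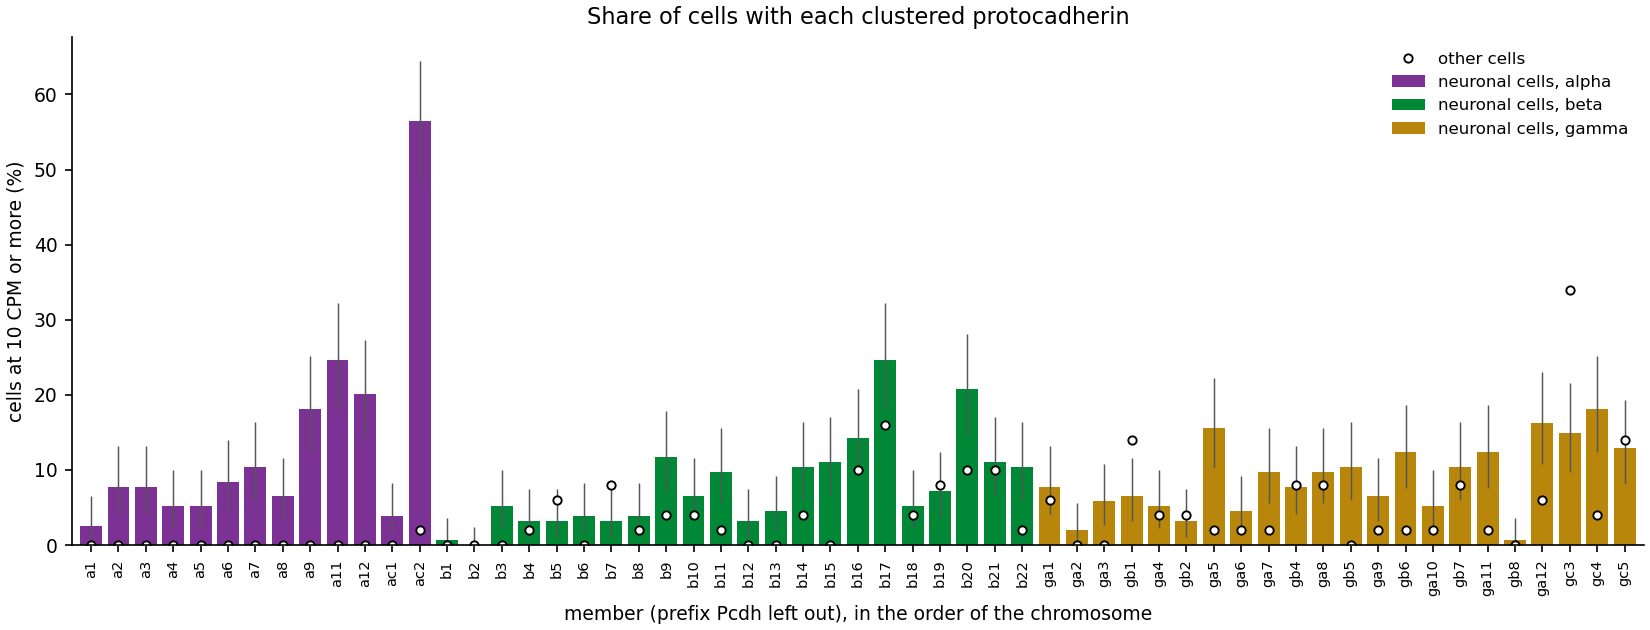
Share of cells (vertical axis, percent) with each member at 10 CPM or more, in chromosomal order (horizontal axis); bars are the neuronal cells with 95% exact Clopper-Pearson intervals, and open circles the 50 other cells. Pcdhac2 stands alone at 56.5%, most bars lie below 25%, and Pcdhgc3 is at 14.9% in neuronal and 34% in other cells.

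Over all 57 members the share of neuronal cells had a median of 7.79%. Pcdhb2 was the one member at 10 CPM in no neuronal cell (a count of 0 allows up to 1.95%), although 3 cells had reads of it. The other rarely detected members were Pcdhb1 and Pcdhgb8 with 1 cell each and Pcdhga2 with 3. No member was without reads in neuronal cells. In other cells 23 of 57 members were not seen at 10 CPM, 12 of them among the 13 alpha genes.

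Beta members were led by Pcdhb17, present in 38 neuronal cells (24.7%) and 8 other cells (16.0%). Its values overlapped fully between the classes, with medians of 0 and highest values of 148.1 CPM in neuronal and 157.9 CPM in other cells. Pcdhb20 was present in 32 neuronal cells (20.8%) and 5 other cells (10.0%), and Pcdhb16 in 22 (14.3%) and 5 (10.0%). Pcdhb9 was present in 18 neuronal and 2 other cells. Pcdhb15 was present in 17 neuronal cells (11.0%) and in 0 of 50 other cells. Pcdhb5, Pcdhb7 and Pcdhb19 had a larger share in other cells, at 6%, 8% and 8% against 3.25%, 3.25% and 7.14% of neuronal cells.

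Among gamma genes, the alternate members Pcdhga12 and Pcdhga5 were present in 25 (16.2%) and 24 (15.6%) neuronal cells and in 3 and 1 other cells. Pcdhgb6 and Pcdhga11 followed with 19 neuronal cells each (12.3%). The gamma C-type genes did not share 1 pattern. Pcdhgc4, whose loss is known to cost interneurons their survival, was present in 28 neuronal cells (18.2%) and 2 other cells (4.00%). Pcdhgc5 was present in 20 neuronal (13.0%) and 7 other cells (14.0%). Pcdhgc3 was present in 23 neuronal cells (14.9%, interval 9.71 to 21.6%) and in 17 other cells (34.0%, interval 21.2 to 48.8%). Its mean was 7.60 CPM in neuronal and 7.88 CPM in other cells on plate 1, 3.97 and 15.9 on plate 2, and 1.46 and 12.0 on plate 3, so that the classes lay close together on plate 1 and apart on plates 2 and 3. Pcdhgc3 shares 1562 of its 3383 own exonic bases with BC037039 in the annotation, and reads of the 2 genes cannot be told apart there. Counting differed between plate 1 and the other plates, and so did the make-up of the other cells. The endothelial list was carried by 9 of 12, 2 of 21 and 2 of 17 other cells of plates 1 to 3. The enteric glia list was carried by 2, 6 and 3 of them. The parts of counting and make-up in this plate contrast cannot be told apart.

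Among other cells, Pcdhgc3 was most frequent in those with glial genes. Of the 11 carrying the enteric glia list, 8 had Pcdhgc3 (72.7%, interval 39.0 to 94%) and plates 1 to 3 held 1 of 2, 5 of 6 and 2 of 3. The mean over these 11 cells was 31.7 CPM. It was present in 7 of 13 other cells with the endothelial list, in 6 of 27 with the smooth muscle list, in 3 of 16 with the fibroblast list and in 0 of 9 with the leukocyte list; a cell can carry several lists. Among neuronal cells Pcdhgc3 was present in 9.09% of those that carried no other list and in 29.5% (13 of 44) of those that carried one; by plate the shares were 13.9%, 10% and 4.55% without and 38.9%, 33.3% and 9.09% with such a list. The summed level of the 6 glial genes ran from 0 to 1610 CPM in neuronal and from 0 to 2620 CPM in other cells, with medians of 5.77 and 0.972, and its part in these shares was not tested.

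The C-type members were combined in 18 ways in neuronal cells. Pcdhac2 alone was the most frequent (54 cells, 35.1%), none of the 5 was present in 43 cells (27.9%), Pcdhac2 with Pcdhgc4 in 9 and Pcdhac2 with Pcdhgc3 in 7. In the other cells 28 of 50 had none, and Pcdhgc3 alone was the next most frequent (13 cells, 26.0%).

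The reads common to all members gave a second measure of each cluster, on plates 2 and 3 only. They reached 10 CPM for alpha in 36 of 45 neuronal cells of plate 2 (80%) and 46 of 55 of plate 3 (83.6%), against 1 of 21 and 1 of 17 other cells. With 1 library of each near-identical pair the plate 3 value was 43 of 52. For gamma they reached it in 34 of 45 (75.6%) and 46 of 55 (83.6%) neuronal cells, and in 15 of 21 (71.4%) and 11 of 17 (64.7%) other cells. Alpha reads at this level were thus mostly in neuronal cells. Gamma values of the classes overlapped, and the highest lay in other cells, at 307.2 CPM against 222 in neuronal cells on plate 2 and 583.2 against 339 on plate 3. Other cells carrying the glial list had a median gamma value of 199 CPM in 6 cells of plate 2 and 365.5 CPM in 3 cells of plate 3, against 59.2 and 70.4 CPM in neuronal cells. None of the 4 and 3 other cells of these plates with the leukocyte list had a gamma value of 10 CPM. Where the common reads reached 10 CPM, no member of the cluster did in 8 of 82 neuronal cells for alpha and in 12 of 80 for gamma. In other cells this held for 2 of 2 for alpha and 6 of 26 for gamma.

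**Figure D4:**
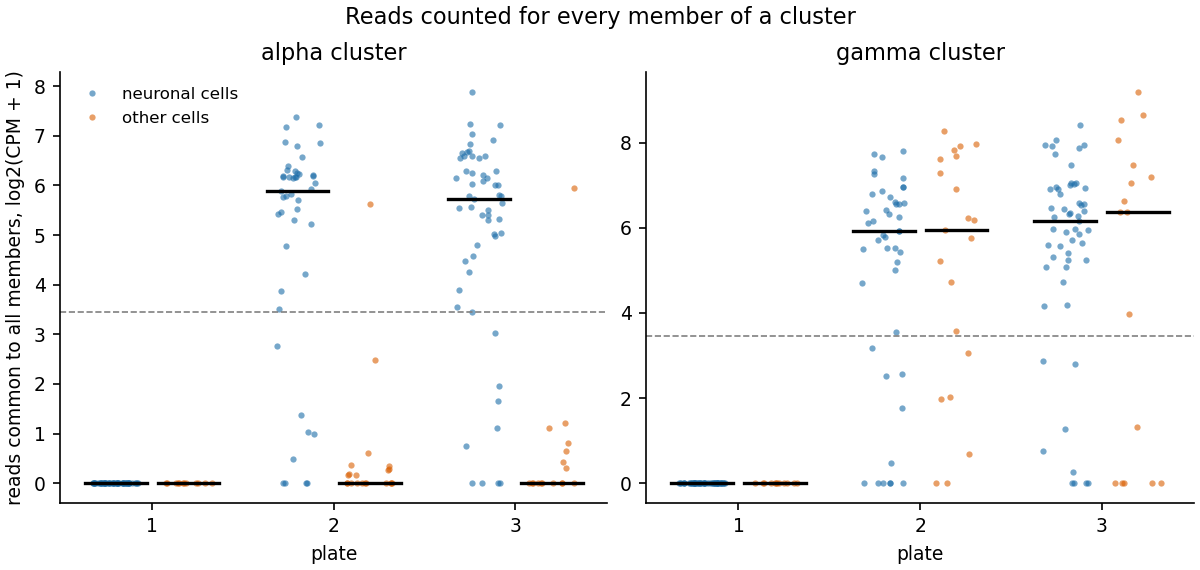
Reads counted for every member of the alpha (left) or gamma (right) cluster, as log2(CPM + 1) per cell (vertical axis), by plate (horizontal axis); points are cells, black bars medians and the dashed line 10 CPM. All plate 1 cells lie at 0; on plates 2 and 3 alpha reads are high in most neuronal cells and in 2 other cells, while gamma reads are high in both classes.

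The size of the difference between the classes was compared over the whole table within each plate, on the log2 ratio of mean CPM with 1 CPM added to both; a gene was counted as higher when the ratio was at least 1 on all 3 plates, among the 18812 genes with a mean of at least 1 CPM. Among all these genes 15.3% were higher and 4.45% lower in neuronal cells. Of the 57 members 50 had such a mean over all cells, and Pcdha1, Pcdhac1, Pcdhb1, Pcdhb2, Pcdhb4, Pcdhga2 and Pcdhgb8 did not. Of the 50, 15 were higher (7 of 11 alpha, 4 of 19 beta and 4 of 20 gamma) and 0 lower. Most cells are neuronal, so a member read only in other cells needs a higher level there to reach this mean. The filter thus favours members that are high in neuronal cells, which limits these counts and the medians below. All 18812 genes passed the same filter. The median over these 50 of the mean ratio was 1.18, with 2.21 for alpha, 0.87 for beta and 0.62 for gamma, beside 0.43 over all genes. Of them 35 had no read in the other cells of at least 1 plate, where the ratio depends on the added value. For those plates a bound was also taken, with 3 reads assumed in each other cell and no CPM added to either side. With these bounds the medians were 0.89, 1.64, 0.58 and 0.49, and 11 of the 15 kept a ratio of at least 1 on all plates. The bounds are not like for like, since adding 1 CPM to both sides would bring them nearer to 0, and fewer may then pass. Taken as deposited, 13 of 54 members were higher (9 of 13 alpha, 4 of 19 beta and 0 of 22 gamma), beside 15.2% of 18816 genes. On plates 2 and 3 every deposited alpha or gamma value includes the count common to its cluster. The alpha and gamma calls as deposited thus largely repeat 1 measure per cluster on those plates, and are not like for like with the share over all genes. With 1 library of each near-identical pair, 17 were higher on member-specific reads, beside 15.0%.

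Pcdhac2 differed most, with ratios of 4.48, 5.05 and 4.93 on plates 1 to 3 and means of 42.2, 34.1 and 32.3 CPM in neuronal cells against 0.931, 0.0554 and 0.0936 in other cells. Pcdha9, without a read in any other cell, had neuronal means of 9.10, 4.28 and 9.32 CPM, which were at least 6.59-fold, 4.73-fold and 5.63-fold above 3 reads per other cell. Pcdha12 was at least 7.26-fold and 3.46-fold higher on plates 1 and 3 by the same bound. Pcdha6, Pcdha7, Pcdha11, Pcdhb15, Pcdhgb5 and Pcdhga12 were also higher on each plate, and no single cell ended these calls. Outside the constant exons Pcdha6, Pcdha7, Pcdha11 and Pcdhga12 overlap other gene models by 621, 338, 3407 and 425 bases. Pcdha12 does so by 531 bases. Some reads of these 5 members may therefore belong to another gene. For Pcdhga12 the ratio nearest to 0 became -0.067 when neuronal cells carrying another list were left out.

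The remaining 6 rested on single neuronal cells, since leaving out 1 cell brought the ratio of its plate below 1. Without cell 45 or cell 7 of plate 1 it was 0.97 for Pcdha8. For Pcdhb6 it was 0.083 without cell 3 of plate 1, 0.64 without cell 6 of plate 2, 0.89 without cell 31 and 0.91 without cell 35 of plate 3. For Pcdhb11 it was 0.66 without cell 47 of plate 2. For Pcdhb20 it was 0.84 without cell 34, 0.91 without cell 60 and 0.997 without cell 21 of plate 1, and 0.95 without cell 44 of plate 2, which held 648.3 CPM. For Pcdhga3 it was 0.26 without cell 46 of plate 3 and 0.71 without cell 59 of plate 2. For Pcdhga7 it was 0.38 without cell 23 and 0.88 without cell 28 of plate 1, and 0.84 without cell 56 of plate 2.

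Over 3906 pairs of neuronal cells within a plate the mean number of isoforms shared was 0.940, and 40.1% of pairs shared none. Most members were present in few cells, with a median share of 7.79%, and such members can be shared by few pairs. The number that the single shares alone would give is not set beside these values. They therefore do not tell whether cells shared fewer or more isoforms than that. The mean Jaccard index, the shared number over the number present in either cell, was 0.0915. Plates 1 to 3 had means of 1.19, 0.930 and 0.705, and the mean was 0.896 over 7875 pairs from different plates. With 1 library of each near-identical pair it was 0.921 within and 0.883 between plates, 41.1% and 42.3% of pairs shared none, and the highest number shared was 5 within and 6 between plates, where it had been 8 within plates before. Alpha isoforms made up the largest part of what was shared (0.505 per pair within plates, against 0.211 for beta and 0.224 for gamma), and the widespread Pcdhac2 is one of them. Over the 52 alternate members alone the mean was 0.542, and 60.5% of pairs shared none. Pairs share cells and are not independent, so these values carry no interval.

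Sets of isoforms were almost never repeated. Only 2 sets occurred in more than 1 neuronal cell, each in 2 cells, and both belonged to near-identical libraries. With 1 library of each such pair, 137 cells with an isoform held 137 different sets. A few members out of 57 can be combined in very many ways, so repeats are rare however members are chosen. Even of the 7 near-identical neuronal pairs only 2 repeated the whole set. The number of different sets therefore does not tell how far cells differ. Within clusters sets recurred. Alternate alpha isoforms formed 48 different sets, the most frequent being Pcdha11 alone in 14 cells. Beta isoforms formed 82 sets, led by Pcdhb17 alone in 10 cells, and gamma isoforms 95 sets, led by Pcdhga12 alone in 5 cells. With 1 library of each near-identical pair there were 48 alternate alpha, 79 beta and 93 gamma sets.

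**Figure D5:**
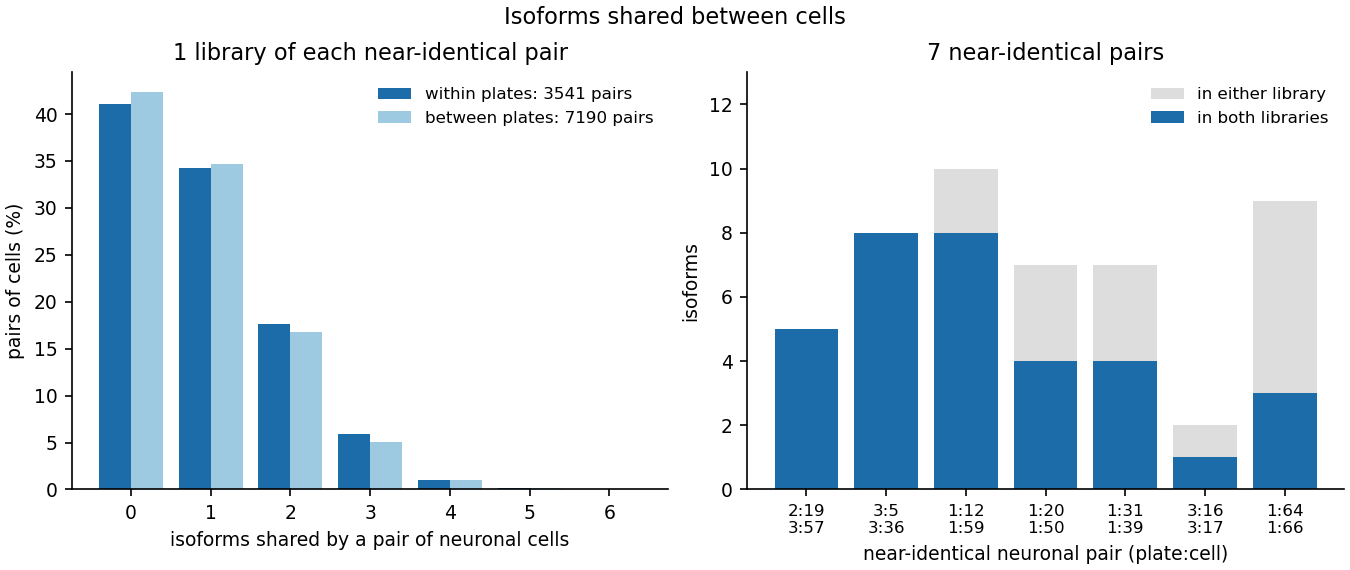
Left, share of pairs of neuronal cells (vertical axis, percent) by the number of isoforms the pair shares (horizontal axis), within plates (dark) and between plates (light), with 1 library of each near-identical pair; right, isoforms present in both libraries (blue) of those present in either (grey) for the 7 near-identical neuronal pairs, named by plate and cell. Ordinary pairs mostly share 0 or 1, whereas 2 of the 7 near-identical pairs share every isoform.

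Near-identical libraries repeated many of their isoforms, though not all. In the 7 neuronal pairs 33 of 48 isoforms (68.8%) were present in both libraries, with Jaccard indices of 0.333 to 1 and a mean of 0.682. Cells 5 and 36 of plate 3 had the same 8 isoforms, with Pcdhb17 at 137.3 and 146.9 CPM, Pcdhga8 at 97.7 and 93.8, Pcdhga12 at 40.2 and 48.8, and Pcdha1 at 22.0 and 19.8. Cell 19 of plate 2 and cell 57 of plate 3 had the same 5, with Pcdhac2 at 112.9 and 131.9 CPM, Pcdha9 at 28.4 and 29.9 and Pcdhgc3 at 15.6 and 14.2. Cells 64 and 66 of plate 1 matched least, with 3 of 9, and Pcdhb15 was 106.7 CPM in the first and 9.21 in the second. The next most correlated pair, cells 36 and 61 of plate 1, was not near-identical and also had 3 of 9. All 15 unmatched isoforms had reads in the partner library, and their higher value had a median of 15.4 CPM. Of 30 isoforms at 20 CPM or more in either library, 26 were at 10 or more in both. The pairs were picked on genes outside the clusters, so these values describe how far isoforms repeat between such libraries.

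Isoform numbers were also set beside the transmitter markers. Chat, the acetylcholine-synthesising enzyme, was present in 68.8% of neuronal cells and Nos1, the neuronal nitric oxide synthase, in 51.9%. Cells with Chat alone held a mean of 5.80 isoforms (56 cells), with Nos1 alone 5.73 (30 cells), with both 6.12 (50 cells) and with neither 2.39 (18 cells). The last group had a median of 1251213 reads against 4181990 to 6261647 in the others, and its plate means were 4.50, 1.75 and 1.13; the part of depth in the lower number was not tested. Pcdhac2 was present in 58.9%, 43.3%, 76% and 16.7% of these groups, in the same order; by plate it was 16 of 23, 11 of 17 and 6 of 16 with Chat alone, 1 of 3, 6 of 14 and 6 of 13 with Nos1 alone, 18 of 22, 8 of 10 and 12 of 18 with both, and 2 of 6, 0 of 4 and 1 of 8 with neither. It was present in 60 of 89 neuronal cells with Slc17a6 (67.4%, interval 56.7 to 76.98%) and 27 of 65 without (41.5%, interval 29.4 to 54.4%). On plates 1 to 3 these shares were 75%, 60% and 60% with and 40%, 52% and 33.3% without Slc17a6.

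Between Chat-only and Nos1-only cells, compared on plates 2 and 3 where each class had at least 5 cells (with 1 cell outside the neuronal class on each side, both of plate 2), 1 member was higher by the same rule (Pcdhgb7) and 2 were lower (Pcdhgb1 and Pcdhga10), beside 5.53% and 2.99% of all genes. Both counts are small beside the 50 members with enough reads, and shares of this size are near the background. Pcdhgb7 fell out without cell 34 or cell 43 of plate 2 (ratios 0.75 and 0.76), and Pcdhgb1 without cell 33 of plate 2 or cell 33 of plate 3 (-0.25 and -0.05). Taken as deposited 0 members passed in either direction, beside 5.53% and 2.98% of all genes. On these plates the deposited alpha and gamma members hold the count common to their cluster and are not separate measures. Pcdhga10 lies with all 2616 of its own bases over the antisense gene Gm26672 and Pcdhgb1 with 1038 over Pcdhga4, and no strand setting is given in the sources used here.

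Carrying smooth muscle genes went with fewer alpha isoforms. The 28 neuronal cells with the smooth muscle list held a mean of 0.786 alpha isoforms, and 5 had Pcdhac2 (17.9%); those without it held 1.99, and 82 had Pcdhac2 (65.1%). By plate, Pcdhac2 was present in 2 of 6, 2 of 14 and 1 of 8 cells with the list and in 35 of 48, 23 of 31 and 24 of 47 without it. On plates 1 to 3 the alpha means were 0.833, 0.714 and 0.875 with the list and 2.02, 2.16 and 1.85 without it. The beta means were 3.00, 2.00 and 0.75 with the list and 1.77, 1.45 and 1.83 without it, and the gamma means 2.83, 2.21 and 0.375 against 2.19, 1.97 and 1.87, so that beta and gamma differed in opposite directions on plates 1 and 3. Median depth was 3570715 reads with and 4181990 without the list, and on plate 2 it was 1591176 and 4955281. The summed level of the 8 smooth muscle genes ran from 1.42 to 61082 CPM in neuronal cells (median 44.6) and from 6.44 to 129000 CPM in other cells (median 662), and its part in this gap was not tested.

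Genes that act on the clusters were present in both classes. Of 19 genes for chromatin and promoter choice, 17 were present in over 50% of neuronal cells and 16 in over 50% of other cells. They include Ctcf and the cohesin subunits Rad21 and Smc3, which bring an enhancer to the chosen promoter, and Wapl, which releases cohesin; Smc3 was present in 92.2%, Wapl in 91.6% and Rad21 in 90.3% of neuronal cells. By the rule above 1 was higher, the DNA methyltransferase Dnmt3a (ratios 1.25, 1.08 and 1.63), and 1 lower, the repressor Rest (-1.66, -1.80 and -1.26), in a list whose median ratio was -0.05. Over all genes 15.3% were higher and 4.45% lower, with a median of 0.43, and the list's counts lie below or near those shares. Of 20 genes for partners and downstream signals 4 were higher (Ret, Cyfip2, Wasf1 and Nlgn1) and 1 lower (Ctnnb1), with a median of 0.18; these counts lie near the same background shares. Ret, the receptor of GDNF family ligands, had means of 304, 184 and 323 CPM in neuronal cells against 1.40, 5.21 and 3.76 in other cells. Cyfip2 and Wasf1 belong to the WAVE complex that drives actin branching.

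Non-clustered protocadherins, which have their own separate loci, formed another list of 12. Of 11 with sufficient mean, 5 were higher in neuronal cells (Pcdh9, Pcdh10, Pcdh15, Pcdh19 and Pcdh20) and 0 lower, with a median ratio of 1.55, beside 15.3% higher, 4.45% lower and a median of 0.43 over all genes. The filter on the mean over all cells limits these counts in the same way as for the clustered members. Pcdh1 was present in 89% of neuronal and 44% of other cells, and Pcdh7 in 61% and 42%. Pcdh15, a tip-link protein of hair cells, was present in 50% of neuronal cells and in 0 of 50 other cells.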

How the data were processed

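The deposited values are log2(RPKM + 1), with mm10 as the build per the submitters' processing notes; aligner, counter and strandedness: not given in the sources used here. Per the labels, polyA libraries were barcoded per well and plate, without molecular identifiers. Base, added value and lengths were worked out from the values: with GENCODE M21 exon lengths joined by gene name (31374 rows) or the smallest length giving whole reads (6261 rows), 100% of 2375655 values came out as whole reads within 0.0001 of a read, and 11857 rows held none. All results use these reads as CPM. No count test was run, because each plate is 1 sample. The plan had foreseen isoform counts on the deposited reads; member-specific reads, their variant with the median, leaving out overlapping members and leaving out near-identical libraries were chosen after seeing the data. The members and all lists were chosen with earlier results of these data known. A list counts as carried when at least 50% of its genes reach 10 CPM. Named were the C-type members, per cluster the 5 most and 2 least often present, up to 12 members past the fold, per list the 4 most often present and those past the fold, and Chat, Nos1 and Slc17a6; other members, Pcdhga3 and Pcdhga7 among them, were named after their values were seen. Scripts ran in Python 3.11.15 with numpy 2.4.6, pandas 2.3.3 and scipy 1.17.1 and were tested on simulated data. No DNA or protein sequence is printed.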

Additional observations from a re-analysis of the deposited data

How the results depend on the processing

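Settings that did not move a value by more than the SD of the 3 plates, or a count by more than 1.5 times, are not listed. Taken as deposited, the mean of isoforms was 21.7 per neuronal and 13.5 per other cell, pairs within plates shared 15.3 (Jaccard index 0.434), the median named member was present in 56.2% of neuronal cells and 94.8% of them had any; member-specific reads gave 5.49, 2.18, 0.940, 0.0915 and 12.3%. With any read counted the deposited other-cell mean was 21.6, and at 50 CPM the share with any was 85.1%.

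On member-specific reads the mean per neuronal cell was 12.4 with any read, 7.14 at 5 CPM, 1.16 at 50 CPM, 6.94 at 1 RPKM and 3.37 without the 20 members that overlap another gene by at least 100 bases. Per other cell it was 5.32 with any read and 0.420 at 50 CPM. The share with any was 70.1% at 50 CPM. The number shared was 3.82, 1.48, 0.0988, 1.38 and 0.663 under the same 5 settings. Its Jaccard index was 0.169 with any read and 0.0555 at 50 CPM. The median named share was 27.9%, 15.9%, 1.62% and 15.9% with any read, at 5 CPM, at 50 CPM and at 1 RPKM. Thinned to 1000000 reads, neuronal cells had a mean of 5.91.

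The count of members higher in neuronal cells was 13 as deposited, 7 with 5 CPM added and 3 with a difference of 20 points in the share of cells as the rule. On member-specific reads the count of 15 became 3 with 5 CPM added, 6 among genes of at least 5 CPM, 1 by the 20-point rule and 9 without overlapping members; leaving out 1 plate gave 17 to 24 (24 without plate 1), and 0 to 1 lower (1 without plate 1). Pcdhga12 turned to -0.067 without neuronal cells that carried another list. Between Chat-only and Nos1-only cells as deposited, 0 were higher and 0 lower, against 1 and 1 with 0.1 CPM added, 1 and 2 without cells of another list, 1 and 2 on member-specific reads, and 4 to 5 and 3 to 5 on 1 plate alone. On member-specific reads 1 higher and 2 lower became 2 higher with 0.1 CPM added and 2 higher without cells of another list, 0 and 0 with 5 CPM added, at a mean of 5 CPM or without overlapping members, 0 and 1 by the 20-point rule, and 8 to 14 and 10 to 11 on 1 plate alone. The cause of these shifts was not tested. No paired analysis was possible because the cells carry no number that ties them across classes or plates. Isoform number followed depth on plates 2 and 3 (Spearman's rho 0.597 and 0.411 over cells) but not on plate 1 (-0.056), and 15 neuronal cells had under 1000000 reads.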
